A study of Pinellia ternata with 6 samples.

Results

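The WRKY transcription factor unigenes described here are 6 assembled transcripts of Pinellia ternata, a medicinal herb of the arum family, out of 62591 unigenes in the table analysed. They are TRINITY_DN12750_c0_g2, TRINITY_DN6277_c0_g1, TRINITY_DN45076_c0_g1, TRINITY_DN3466_c0_g1, TRINITY_DN6636_c0_g1 and TRINITY_DN4327_c3_g1, and the prefix of the assembler is left out below. The study named these unigenes as WRKY genes with lower expression after chromosome doubling, from a comparison of the same 6 samples, so the difference between the lines chose them and is given as a description with no test. The WRKY name rests on the study's own search for transcription factors and was not checked here against protein sequences.

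WRKY proteins are plant transcription factors named after a short conserved stretch of amino acids in their DNA-binding domain, which grips a zinc ion and recognises a promoter element called the W-box. In Arabidopsis and rice, members of the family act as activators or repressors in responses to fungi, bacteria and wounding, in salicylic and jasmonic acid signalling, and in leaf senescence. Family members are often induced together and can bind each other's promoters.

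The T2 line was an octoploid (8x, 2n = 104) that came from a single plant, and the T2Plus line was derived from it by colchicine treatment (16x, 2n = 208). Both lines were measured by RNA-seq in whole seedlings at 30 days after planting, with 3 samples per line. For each line 5 seedlings were mixed before grinding, and the study describes its replicates as biological and independent. The sources do not say if every replicate came from a separate mix, so how much of the spread between samples is technical is not known. Since whole seedlings were used, fewer cells of a type and less RNA per cell cannot be told apart. Ploidy, colchicine treatment and any difference in growth between the lines cannot be told apart either.

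Levels are called FPKM after the study, a fragment count scaled by transcript length and library size. They were further scaled per sample by the authors. The sources do not say if the deposited values were FPKM or TPM, a related unit. In each sample 28177 to 33997 unigenes lay above 0. Replicate 2 of T2 line stood apart, with the fewest unigenes above 0 and a median log2(FPKM + 1) of 1.91 against 2.22 to 2.31 in the other samples. By the study's read totals it was the deepest library, not the shallowest. The worth of 1 read, relative to replicate 1 of T2 line, was 0.740 in it and 0.934 to 1.12 in the others. The reason for its low number of unigenes was not tested. As a check of the tissue, 27 chloroplast protein unigenes made up 0.745 to 0.882% of all FPKM in the T2 samples and 0.558 to 0.673% in the T2Plus samples. The part of this difference in the WRKY levels was not tested. Unigenes that matched organisms other than green plants best took 0.149 to 0.154% in T2 line and 0.158 to 0.161% in T2Plus line.

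As a set, the WRKY unigenes were lower in T2Plus line. Their summed level was 58.8, 81.4 and 58.1 FPKM in replicates 1, 2 and 3 of T2 line, and 8.26, 10.6 and 14.3 FPKM in those of T2Plus line. The lowest T2 sample thus lay well above the highest T2Plus sample. With the sum of all unigenes as the base, the set made up 104, 130 and 103 FPKM per 1000000 in T2 line and 15.4, 20.2 and 26.8 in T2Plus line. DN4327_c3_g1 counts in these sums with 1 isoform, which falls short of the unigene level of the study. Without DN4327_c3_g1 the sums were 55.8, 69.7 and 52.2 FPKM against 4.999, 6.14 and 11.3 FPKM.

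All 6 unigenes passed the filter of at least 1 FPKM in at least 3 samples, as did 28536 unigenes in all. With limma, and with 0.05 as the largest adjusted p and 2-fold as the smallest change accepted, 5 of the 6 were called lower in T2Plus line, where 6.3% of all unigenes tested were called lower and 7.22% higher. The same 5 had every T2Plus sample below every T2 sample, a pattern found in 16.4% of all unigenes tested. Because these samples served to choose the unigenes, nothing is read from these counts. The median log2 fold change of the 6 (T2Plus minus T2, on the log2(FPKM + 1) scale) was -2.31, and that of all unigenes tested was 0.10.

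**Figure D1:**
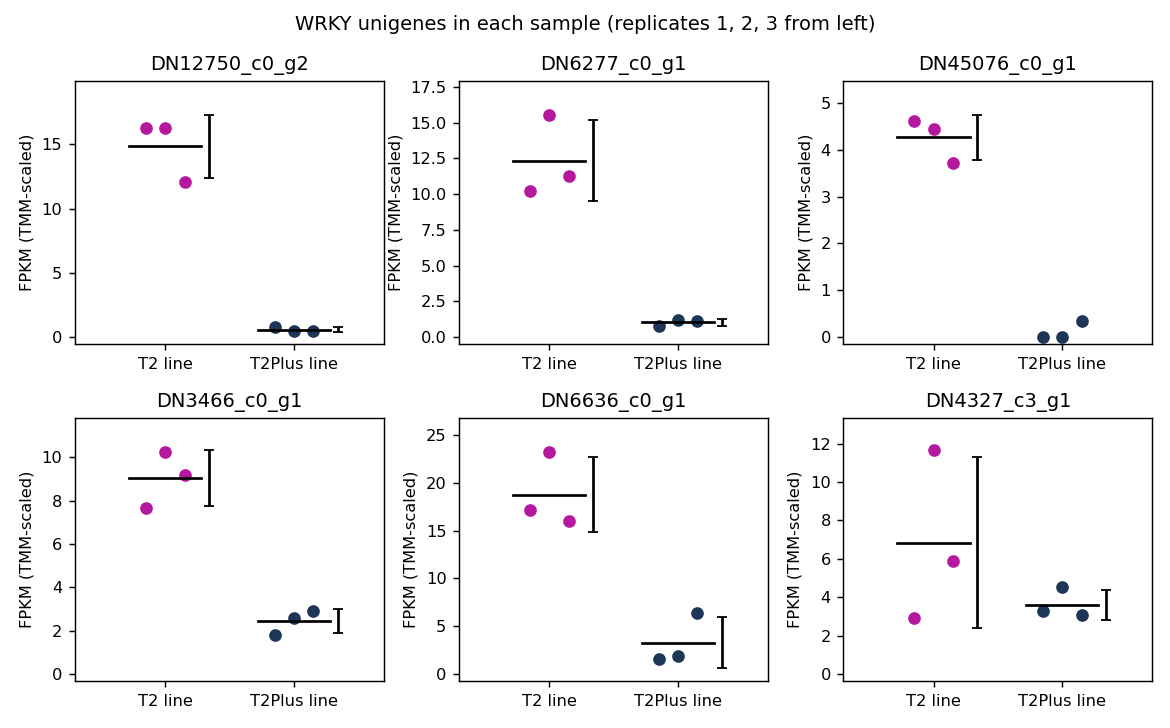
Level of each WRKY unigene in the 3 samples of T2 line and of T2Plus line, in FPKM after the authors' TMM scaling. Points are samples with replicates 1, 2 and 3 from left to right, horizontal lines are means and vertical bars are 1 SD (n = 3), both left out for DN45076_c0_g1 in T2Plus line, where 2 samples are at 0. The groups are apart in 5 panels and overlap in that of DN4327_c3_g1.

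TRINITY_DN12750_c0_g2 had the lowest log2 fold change of the 6 on the log2(FPKM + 1) scale. This unigene was placed by the study under the Gene Ontology term for defense response to fungus. Its level was 16.2, 16.2 and 12.0 FPKM in the T2 samples and 0.801, 0.471 and 0.451 FPKM in the T2Plus samples. The T2 samples were all high and the T2Plus samples all near the floor of the table, and the lowest T2 value was 15.03 times the highest T2Plus value. The means were 14.8 ± 2.42 and 0.574 ± 0.197 FPKM (SD, n = 3), a ratio of 25.8, and the log2 fold change was -3.33 (SE 0.29). Among all unigenes tested, 0.690% had a lower log2 fold change.

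The low end of DN12750_c0_g2 rested on very few fragments. After correction for what a read was worth in each library, its T2Plus values were 2, 1 and 1 times its smallest step, within 0.1 step of whole numbers, and its T2 values came to about 38, 51 and 25 steps. If a step is 1 fragment, 114 steps against 4 give a ratio of 25.7 with an exact 95% interval of 9.77 to 96.0. Such an interval covers counting error only, and a step may stand for more than 1 fragment, since the table gives no counts.

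TRINITY_DN45076_c0_g1 had the lowest mean level of the WRKY unigenes in both lines. The T2 samples gave 4.61, 4.44 and 3.73 FPKM. In T2Plus line it was listed at 0 in replicates 1 and 2 and at 0.345 FPKM in replicate 3. The groups did not overlap, and no ratio of means is given, since an exact 0 in such a table can be a failed estimate. The log2 fold change was -2.25 (SE 0.33) with the pseudocount of 1 and -4.72 with a pseudocount of 0.1.

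TRINITY_DN6277_c0_g1, placed by the study under response to nematode, showed a comparable contrast. It reached 10.2, 15.5 and 11.2 FPKM in T2 line, as compared with 0.782, 1.23 and 1.15 FPKM in T2Plus line. No T2Plus sample came near a T2 sample. The means were 12.3 ± 2.82 and 1.05 ± 0.237 FPKM (SD, n = 3), a ratio of 11.7, and the log2 fold change was -2.69 (SE 0.30). Its T2Plus values came to only 3, 4 and 4 steps, with the smallest value taken as 3 steps. The ratio from steps was 12.1, with an exact 95% interval of 6.59 to 24.9 under the limits given for DN12750_c0_g2.

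TRINITY_DN3466_c0_g1 had the smallest difference of the 5 called unigenes. Its level was 7.67, 10.3 and 9.17 FPKM in the T2 samples and 1.81, 2.60 and 2.90 FPKM in the T2Plus samples. The groups were apart, and unlike DN12750_c0_g2 and DN45076_c0_g1 this unigene stayed above 1 FPKM in every T2Plus sample. Its T2Plus values still came to only 5, 6 and 7 steps, with the smallest value taken as 5 steps. The ratio from steps was 3.86, with an exact 95% interval of 2.29 to 6.85 under the limits given for DN12750_c0_g2. The means were 9.03 ± 1.30 and 2.44 ± 0.560 FPKM (SD, n = 3), a ratio of 3.71, with a log2 fold change of -1.55 (SE 0.28).

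TRINITY_DN6636_c0_g1, placed by the study under toxin metabolic process, was the most abundant WRKY unigene of T2 line. The T2 samples gave 17.1, 23.2 and 16.0 FPKM, and the T2Plus samples 1.60, 1.84 and 6.42 FPKM. Replicate 3 of T2Plus line was 3.50 times the next T2Plus sample, yet it still lay below every T2 sample. The means were 18.8 ± 3.91 and 3.29 ± 2.72 FPKM (SD, n = 3), a ratio of 5.71, and the log2 fold change was -2.36 (SE 0.44). Without replicate 3 of T2Plus line the ratio was 10.9. Without replicate 1 or replicate 2 of T2Plus line the unigene was no longer called.

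DN6636_c0_g1 was the sole WRKY unigene with more than 1 isoform in the table. Its main isoform, i4, gave 17.1, 22.9 and 15.4 FPKM for T2 line, with 1.60, 1.26 and 4.79 FPKM for T2Plus line, and so followed the unigene. The minor isoform, i5, gave 0, 0.382 and 0.580 FPKM for T2 line, with 0, 0.575 and 1.63 FPKM for T2Plus line. These i5 ranges overlap, and i5 was highest in the T2Plus sample in which i4 was also highest. Isoform i5 made up 0, 1.64 and 3.63% of the unigene in T2 line and 0, 31.3 and 25.4% in T2Plus line, the latter on a much smaller sum. The other WRKY unigenes were represented by 1 isoform each, and 7 isoforms were summed in all.

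TRINITY_DN4327_c3_g1 was the one WRKY unigene whose lines overlapped. Its level was 2.91, 11.7 and 5.89 FPKM in the T2 samples and 3.26, 4.51 and 3.06 FPKM in the T2Plus samples. The lowest of all 6 values belonged to T2 line, and the T2Plus samples fell between replicates 1 and 3 of T2 line. The means were 6.82 ± 4.45 and 3.61 ± 0.784 FPKM (SD, n = 3), a ratio of 1.89, and the log2 fold change was -0.61 (SE 0.47), which was not called. Replicate 2 of T2 line was the highest of the 6 samples, and without it the ratio was 1.22 and the log2 fold change -0.18.

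The value of DN4327_c3_g1 is that of a single isoform, i3. For the other 5 WRKY unigenes the isoforms in the table added up to the unigene level that the study used, to within a scaling factor per sample. Only samples in which the level of the study was at least 1 FPKM were compared. This left out every T2Plus sample of DN12750_c0_g2 and DN45076_c0_g1, and replicate 1 of T2Plus line for DN6277_c0_g1. For DN4327_c3_g1 isoform i3 fell short of the unigene level of the study, so further isoforms of this unigene were not analysed here. The level of the whole unigene may differ between the lines in another way. In T2 line replicate 2 was 1.98 times the next sample for i3, and 5.31% of unigenes of a similar mean level (the unigenes tested were divided into 3 equal classes by mean level) had an excess at least as large in that sample. For DN6636_c0_g1 the like excess in replicate 3 of T2Plus line was shared by 0.690% of all unigenes tested and 0.231% of those in its class, which is set by the mean over both lines.

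One further unigene in the table, DN4327_c4_g1, shares the assembly cluster number of a WRKY unigene. Whether it encodes a WRKY protein is not given in the annotation used here. Its values were 2.46, 3.92 and 4.88 FPKM for T2 line, with 3.20, 0.679 and 0.326 FPKM for T2Plus line. The lines overlapped through replicate 1 of T2Plus line, which was higher than replicate 1 of T2 line. This unigene was not part of the choice, and its log2 fold change of -1.14 (SE 0.54) did not pass the test (adjusted p = 0.22, limma with Benjamini-Hochberg adjustment). Its ratio of means was 2.68, and 7.47 without replicate 1 of T2Plus line.

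**Figure D2:**
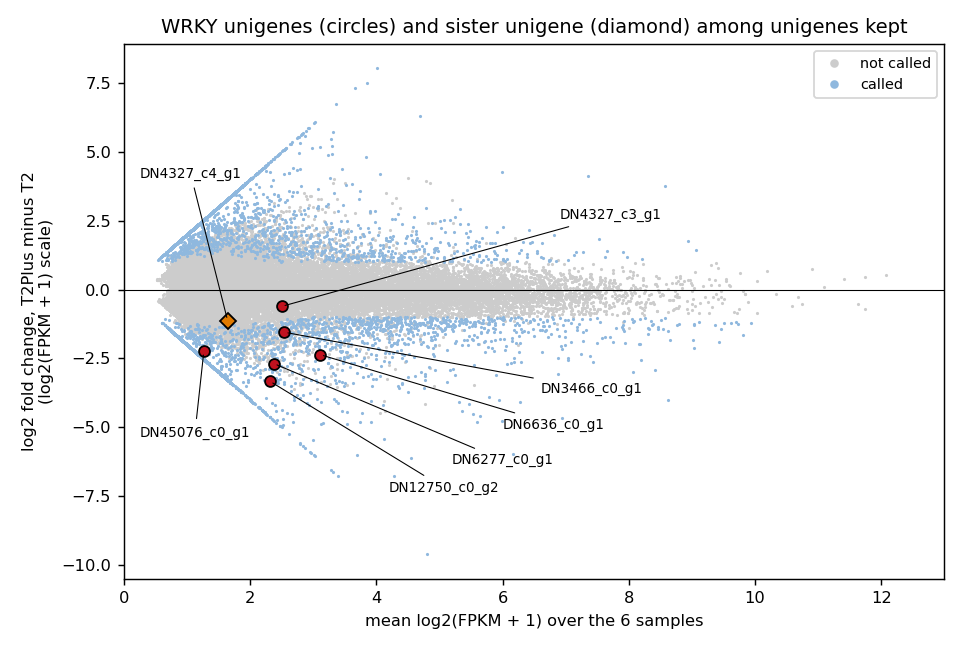
Log2 fold change between T2Plus line and T2 line (vertical axis, log2(FPKM + 1) scale) against the mean log2(FPKM + 1) over the 6 samples (horizontal axis) for the 28536 unigenes tested. Red circles are the WRKY unigenes, from -3.33 for DN12750_c0_g2 to -0.61 for DN4327_c3_g1, the orange diamond is DN4327_c4_g1 at -1.14, and blue points are the other unigenes called.

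The rank of the WRKY unigenes among all expressed unigenes changed with their level. In T2 line DN6636_c0_g1 stood above 77.6 to 81.9% of the unigenes above 0, DN12750_c0_g2 above 72.4 to 78.3% and DN6277_c0_g1 above 70.0 to 75.7%. DN3466_c0_g1 followed at 63.9 to 68.6%, and DN45076_c0_g1 lay near the middle at 43.7 to 51.3%. The WRKY genes of T2 line were thus moderately, not strongly, expressed.

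In T2Plus line the positions were far lower for the called unigenes. DN12750_c0_g2 stood above 1.57 to 6.27% of the unigenes above 0, and DN6277_c0_g1 above 5.97 to 13.0%. DN3466_c0_g1 stood above 22.4 to 37.2% and DN6636_c0_g1 above 19.3 to 59.3%. For DN45076_c0_g1 the single value above 0 exceeded 0.789% of unigenes. DN4327_c3_g1, by isoform i3 alone, stood above 38.1 to 71.0% in T2 line and 38.8 to 49.7% in T2Plus line, so its ranks overlapped as its levels did.

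The order among the WRKY unigenes differed between the lines. DN6636_c0_g1, DN12750_c0_g2 and DN6277_c0_g1 took places 1, 2 and 3 in every T2 sample, although the ranges of neighbours in this order overlapped. In replicates 1 and 2 of T2Plus line DN4327_c3_g1 came first, with 39.5 and 42.3% of the summed WRKY level, and DN3466_c0_g1 came second. DN4327_c3_g1 counts here with isoform i3 only, which falls short of the unigene level of the study. Its place, and the shares of all WRKY unigenes, may differ for the whole unigene. In replicate 3 of T2Plus line DN6636_c0_g1 came first with 44.9%. DN12750_c0_g2 went from 20.0 to 27.6% of the summed level in T2 line to 3.15 to 9.70% in T2Plus line.

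**Figure D3:**
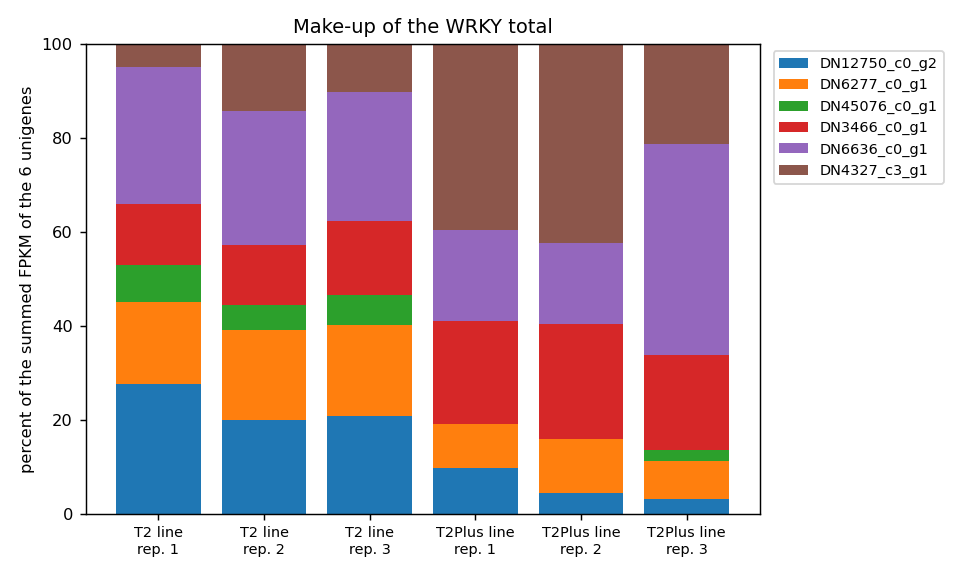
Share of each WRKY unigene in the summed FPKM of the 6 unigenes (vertical axis, percent), for each sample (horizontal axis). DN4327_c3_g1, counted by isoform i3 alone, takes 39.5 and 42.3% in replicates 1 and 2 of T2Plus line but 4.95 to 14.3% in T2 line, on sums that differ between the lines.

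In T2 line the SD of log2(FPKM + 1) was 0.132 for DN45076_c0_g1, 0.189 for DN3466_c0_g1, 0.233 for DN12750_c0_g2, 0.274 for DN6636_c0_g1 and 0.294 for DN6277_c0_g1. DN4327_c3_g1 was the exception at 0.849, a spread larger than that of 63.4% of unigenes in its class of mean level. In T2Plus line the SD was 0.172 to 0.247 for the WRKY unigenes other than DN6636_c0_g1, but values below 1 FPKM are compressed on this scale, so the SDs of DN12750_c0_g2 and DN45076_c0_g1 say little of their spread. DN6636_c0_g1 reached 0.839, larger than in 94.8% of the unigenes in its class. That class is the highest by the mean over both lines, and at the lower level of this unigene in T2Plus line larger spreads were common, with a median SD of 0.459 in the middle class.

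Within a line the WRKY unigenes did not share a single pattern over the replicates. Replicate 2 of T2 line was the highest T2 sample for 5 of the 6, the exception being DN45076_c0_g1, and the lowest for 0 of the 6. Among all unigenes tested that sample was the highest of its line in 33.0% and the lowest in 44.8%. With the authors' scaling divided out, it was the highest for 4 of the 6 and in 27.9% of all unigenes. The unigene that changed was DN12750_c0_g2, nearly tied at 16.25 FPKM in replicate 2 and 16.23 FPKM in replicate 1 with the scaling kept. In T2Plus line replicate 1 was the lowest sample for DN6277_c0_g1, DN3466_c0_g1 and DN6636_c0_g1 and tied at 0 with replicate 2 for DN45076_c0_g1, and replicate 3 was the highest for DN45076_c0_g1, DN3466_c0_g1 and DN6636_c0_g1. For DN45076_c0_g1 this rests on the value of 0.345 FPKM alone. Among all unigenes tested, replicate 1 was the lowest T2Plus sample in 36.16%, ties counted to it, and replicate 3 the highest in 35.45%. No correlation across samples is given, since the lines form separate clusters of 3 samples.

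**Figure D4:**
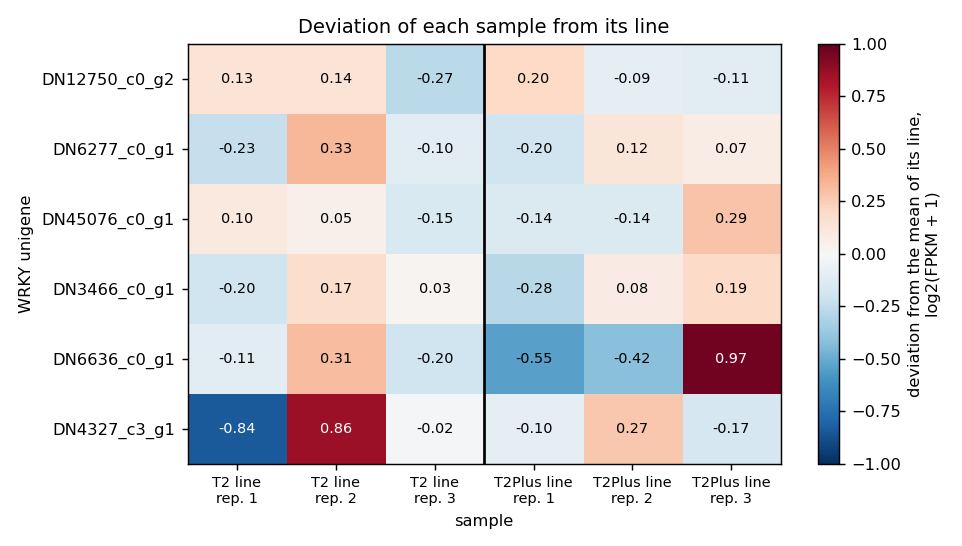
Deviation of each sample from the mean of its line on the log2(FPKM + 1) scale (colour and printed value), for the WRKY unigenes (vertical axis) in the 6 samples (horizontal axis). The widest deviations are those of DN6636_c0_g1 in replicate 3 of T2Plus line, at 0.97, and of DN4327_c3_g1 in replicates 1 and 2 of T2 line, at -0.84 and 0.86.

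The unigenes most like each WRKY unigene over the 6 samples were sought among 228 named unigenes, with the WRKY unigenes left out. The measure was the root mean square difference of their centred log2(FPKM + 1) values. HYPER-SENSITIVITY-RELATED 4 (DN7915_c0_g1), named after the local cell death by which plants contain a pathogen, was the nearest named unigene to DN12750_c0_g2 at 0.548, to DN6277_c0_g1 at 0.265 and to DN45076_c0_g1 at 0.213. Its values were 13.3, 13.1 and 14.7 FPKM for T2 line, with 1.68, 2.16 and 1.85 FPKM for T2Plus line. The second nearest were phosphoenolpyruvate carboxylase kinase 1 (DN16812_c2_g1) for DN12750_c0_g2, at 0.645, and the L-type lectin-domain containing receptor kinase IX-1 (DN48121_c0_g1) for DN6277_c0_g1 and DN45076_c0_g1, at 0.395 and 0.246. Many unigenes outside the 228 were nearer than these, 316 in the case of DN12750_c0_g2 and HYPER-SENSITIVITY-RELATED 4, WRKY unigenes included. DN6277_c0_g1 was at 0.418 from DN12750_c0_g2, nearer than any of the 228. DN6277_c0_g1 and DN45076_c0_g1 were at 0.314 from each other, farther than HYPER-SENSITIVITY-RELATED 4 was from either.

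The nearest named unigene to DN3466_c0_g1 was an ethylene response factor unigene, DN151_c1_g1, at 0.126, followed by the transcription factor MYB78 (DN18485_c0_g1) at 0.156. Of all unigenes tested, 5 were nearer to DN3466_c0_g1 than DN151_c1_g1. The nearest WRKY unigene to DN3466_c0_g1, DN45076_c0_g1, was farther at 0.396. For DN6636_c0_g1 the nearest named were an uncharacterized chloroplast oxidoreductase (DN7933_c0_g1) at 0.390 and the receptor kinase IX-1 at 0.451. The WRKY unigene DN45076_c0_g1 was nearer to DN6636_c0_g1 than both, at 0.373. These likenesses rest mostly on the difference between the lines, which chose the WRKY unigenes.

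DN4327_c3_g1 had neighbours of another kind. They were the chloroplast protein Iojap (DN16276_c0_g1) at 0.232, known from maize for its part in plastid development, and BUD31 homolog 2 (DN4818_c0_g2) at 0.255, whose yeast namesake is a splicing factor. The Iojap unigene reached 18.9, 44.4 and 28.5 FPKM in T2 line, as compared with 22.6, 26.4 and 22.2 FPKM in T2Plus line. Like DN4327_c3_g1, it was highest in replicate 2 and lowest in replicate 1 of T2 line, with little difference among the T2Plus samples. The nearest WRKY unigene to DN4327_c3_g1, DN3466_c0_g1, was farther at 0.631.

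Other transcription factors and defense genes were compared with the WRKY unigenes through lists formed by protein name. Of 20 transcription factors on the list, 14 were in the table and 11 passed the filter, of which 0 were called higher and 2 lower in T2Plus line, where 7.22% of all unigenes tested were called higher and 6.3% lower. Their median log2 fold change was -0.15, against 0.10 for all unigenes. The 2 called were MYB78 and ERF110 (DN11471_c0_g2), the latter also named by the study as lower in T2Plus line. The mean of MYB78 was 25.6 ± 4.60 FPKM in T2 line, as compared with 8.09 ± 1.69 FPKM after doubling (SD, n = 3), with a log2 fold change of -1.55 (SE 0.21, adjusted p = 0.0051 in limma). ERF110, an ethylene response factor, was at 20.2 ± 4.28 and 4.01 ± 1.28 FPKM (SD, n = 3), with a log2 fold change of -2.10 (SE 0.28, adjusted p = 0.0048 in limma).

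Of 20 immune signalling unigenes chosen by protein name, 12 were in the table and 6 were tested, with 0 called higher and 1 called lower in T2Plus line, beside 7.22% and 6.3% of all unigenes tested. The median log2 fold change was 0.21. The 1 called was HYPER-SENSITIVITY-RELATED 4, which fell from 13.7 ± 0.860 to 1.90 ± 0.243 FPKM (SD, n = 3), with a log2 fold change of -2.34 (SE 0.23, adjusted p = 0.0019 in limma). MOS1 (DN4805_c0_g1) went the other way, with every T2Plus sample above every T2 sample, and its log2 fold change of 0.85 (SE 0.22, adjusted p = 0.042 in limma) was below the 2-fold needed for a call. The other 4 tested, RGA3, RGA4, RPP13-like protein 1 and TIFY 9, had log2 fold changes of 0.35, 0.27, -0.14 and 0.15 and were not called. RGA4 was listed at 0 in replicate 2 of T2 line, against 7.71 and 12.4 FPKM in replicates 1 and 3. These exceed its T2Plus values of 6.61, 4.15 and 4.23 FPKM, so its positive sign (SE 0.96) rests on that 0. By means RGA4 was lower after doubling, with a ratio of T2 to T2Plus of 1.34. The list median of 0.21 lies between the values of RGA4 and TIFY 9 and so depends partly on the same 0.

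The Gene Ontology terms under which 3 of the WRKY unigenes stand were taken from the study, which drew their members from these samples, so the counts that follow are no independent evidence of direction. Of 12 tested unigenes of defense response to fungus other than DN12750_c0_g2, 3 were called higher and 8 lower. Of 4 of response to nematode other than DN6277_c0_g1, 1 was called higher and 3 lower. Of 4 of toxin metabolic process other than DN6636_c0_g1, 2 were called higher and 2 lower. Over all unigenes tested, 7.22% were called higher and 6.3% lower, and nothing is read from the counts under these terms. Each term held unigenes called in both directions.

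Under defense response to fungus, DN24244_c0_g1 had 11.6, 19.6 and 17.1 FPKM in T2 line and was listed at 0 in all 3 T2Plus samples, below even DN12750_c0_g2. Under response to nematode, DN45994_c0_g1 showed the reverse, listed at 0 in all 3 T2 samples and at 9.04, 6.98 and 8.68 FPKM in T2Plus line. Under toxin metabolic process, DN13448_c0_g1 averaged 53.4 ± 0.736 FPKM before and 8.17 ± 1.62 FPKM after doubling (SD, n = 3). In the same term DN12907_c0_g4 stood at 4.61 ± 0.916 and 39.2 ± 2.00 FPKM (SD, n = 3).

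The study also named other transcription factor unigenes as changed, again from these samples. Of 10 it named as lower, 7 are in the table, and all 7 were called lower, with a median log2 fold change of -1.25. Of 8 named as higher, 3 are in the table, and all 3 were called higher, with a median of 2.03. Over all unigenes tested, 6.3% were called lower and 7.22% higher. Nothing is read from these counts, since the study chose the lists by this difference. Among the 7, the lowest log2 fold change was -2.10 for ERF110, followed by -1.53 for DN151_c1_g1 and -1.36 for the MYB-related unigene DN14570_c0_g2. DN12750_c0_g2, DN6277_c0_g1, DN6636_c0_g1 and DN45076_c0_g1 had lower values than any of the 7, which is given as a description since both lists were chosen by this difference.

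**Figure D5:**
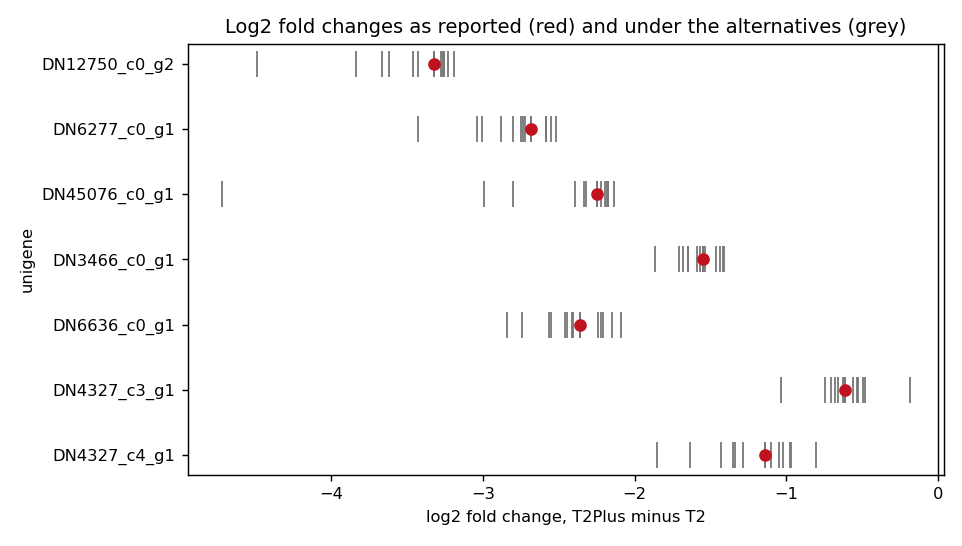
Log2 fold change of each WRKY unigene and of DN4327_c4_g1 (vertical axis), T2Plus minus T2 (horizontal axis), as reported (red circles) and under the other settings tried (grey marks). All values lie below 0, and the widest range is that of DN45076_c0_g1, which is listed at 0 in 2 T2Plus samples.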

How the data were processed

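RNA from seedlings of T2 line and T2Plus line (3 samples each) was sequenced by the authors, who trimmed reads with Trimmomatic 0.36, checked them with FastQC 0.11.5 (submitters' processing notes), assembled them with Trinity at a k-mer of 25 and estimated isoform levels with RSEM. The deposited table holds a level for each isoform, scaled by TMM and called FPKM here. Which column of the RSEM output they come from, FPKM or TPM, is not given in the sources used here. Below 3 FPKM, 98.6 to 99.6% of values are whole multiples of 0.01 times a factor per sample (0.943 to 1.12), taken as that scaling. The factor and the worth of 1 read, from low unigenes, gave the steps quoted for DN12750_c0_g2, DN6277_c0_g1 and DN3466_c0_g1. The table holds 65535 isoforms and is a part of the assembly. Read totals served only to describe depth and counts were not used here, so the study's count test, DESeq, was not run. Columns of fold changes and p-values in the study's tables were not used.

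Isoforms were summed per unigene, a unigene was kept if 3 or more of the 6 samples reached 1 FPKM, and the lines were compared with limma 3.58.1 (R 4.3.3), run on log2(FPKM + 1) values, an intensity trend of the variance and Benjamini-Hochberg adjustment, tested on simulated data. This scale understates changes of weak unigenes. Calls required a fold change of 2 or more and an adjusted p no larger than 0.05. Exact (Clopper-Pearson) 95% intervals were computed on the step counts of DN12750_c0_g2, DN6277_c0_g1 and DN3466_c0_g1. Summaries used Python 3.11.15, numpy 2.4.6, pandas 2.3.3 and matplotlib 3.10.9.

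The WRKY unigenes and all lists were chosen with earlier results of these data known. The unigenes named are the 6, any sharing their cluster number, the called members of each list with the largest changes (at most 3 each way), and the 2 nearest named profiles of each. DN24244_c0_g1, DN45994_c0_g1, DN13448_c0_g1 and DN12907_c0_g4 are such list members, and the uncalled immune signalling unigenes were added after their values were seen. Alternatives were pseudocounts of 0.1 and 0.5, no filter, mean levels of 5 FPKM or more, the highest isoform, a common sum of 1000000, quantile normalization, the authors' scaling divided out, no intensity trend, a replicate block, each sample left out, and the adjusted p alone.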

Additional observations from a re-analysis of the deposited data

How the results depend on the processing

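The 5 WRKY unigenes called lower kept that call under pseudocounts of 0.1 and 0.5, no filter, the highest isoform per unigene, a common sum, quantile normalization, no intensity trend, the authors' scaling divided out and the adjusted p alone, and every log2 fold change of the 6 stayed below 0. The median log2 fold change of the 6, -2.31 as reported, was -3.09 with a pseudocount of 0.1, -2.77 with 0.5 and -2.61 with a common sum of 1000000. With samples left out it ranged from -2.56 to -2.13. The median of all unigenes moved from 0.10 to 0.23 with a common sum and to 0.21 with the authors' scaling divided out, by factors from the study's tables or, in an alternative chosen after seeing the data, from the steps of the values, and the WRKY median was then -2.18 or -2.21.

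Over all unigenes, 2061 were called higher and 1799 lower, against 2354 and 1646 with a common sum and 2367 and 1557 with the authors' scaling divided out by the study's tables. Without a filter the counts were 1073 and 1142, and with a mean of at least 5 FPKM they were 753 and 1050, a setting that removes DN45076_c0_g1 and leaves 4 WRKY unigenes called. With samples left out they ranged from 1463 to 1947 higher and from 1270 to 1628 lower. DN6636_c0_g1 lost its call when replicate 1 or 2 of T2Plus line was left out, and the cause was not tested. Replicate numbers did not pair the samples: deviations of same-numbered samples correlated at 0.037, -0.033 and -0.067 across unigenes, and samples did not each correlate best with their own number. The replicate block gave 1169 and 1146 calls, and 4 WRKY unigenes called, without DN3466_c0_g1. Depth limits DN12750_c0_g2 and DN45076_c0_g1, whose T2Plus values are all below 1 FPKM. DN6277_c0_g1 and DN3466_c0_g1 also rested on few steps in T2Plus line, 11 and 18 in all.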
